A study of Mus musculus with 8 samples.

Results

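A pseudogene is a copy of a gene that has lost the ability to make the product of the original. Most mouse pseudogenes are processed copies, in which a spliced and polyadenylated mRNA was copied back into DNA and inserted elsewhere, so that the copy carries the parent's exons and 3′ end and often a stretch of As after it. Genes with much mRNA in the germ line, such as those of ribosomal proteins and of glycolysis, have many such copies, and a copy that is nearly identical to its parent is hard to tell from it in short reads.

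Of the 56483 polyadenylation adjacent sites (APSs) counted in mouse gastrocnemius muscle, 1188 were assigned to genes of the biotype pseudogene, and all of them are described here. They belonged to 911 pseudogenes. The libraries were made by WTTS-seq (whole transcriptome termini site sequencing), a method that sequences mRNA from its poly(A) tail inwards, from 2 AMPKα1 KO, 2 AMPKα1 WT, 2 AMPKα2 KO and 2 AMPKα2 WT mice, with 1 library per mouse. AMPKα1 and AMPKα2 are the catalytic subunits of the AMP-activated protein kinase, an energy sensor of the cell, and each KO line lacks part of the catalytic domain of its subunit. The sample labels give adult mice of the C57BL/6 strain throughout, whereas the study's methods place the AMPKα1 KO mice on 129S2/SvPas and the AMPKα2 KO mice on C57BL/6, with the former younger than the latter and no age for WT mice. Model, strain and age therefore cannot be told apart between AMPKα1 and AMPKα2 libraries, and KO was compared with WT within each model.

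Between 2311242 and 3549156 reads were counted per library. The 8 skeletal muscle fibre markers were read in all 8 libraries and summed to between 52770 and 104900 CPM (reads scaled to one common library size) of the reads outside Rn18s-rs5, the pseudogene described below. Summed reads of 4 fibroblast genes reached 9661 to 15940 CPM in the AMPKα1 libraries and 1867 to 2694 CPM in the AMPKα2 libraries, those of 3 endothelium genes 115 to 204 and 24.5 to 38.1 CPM, and those of 2 Schwann cell genes 448 to 1091 and 26.9 to 155 CPM. Slow fibre markers were highest in AMPKα1 KO 1 (4180 CPM) and adipocyte markers in AMPKα1 KO 2 (1852 CPM). Their part in the results below was not tested. Reads of Prkaa1, the AMPKα1 gene, numbered 0 and 82 in AMPKα1 KO against 15 and 0 in WT, and those of Prkaa2 numbered 40 and 71 in AMPKα2 KO against 87 and 62 in WT. The 3′ ends of both genes lie outside the deleted domain, so these counts do not check the labels.

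The bases at the sites on which the results turn are shown first, each read 5′ to 3′ from GENCODE transcripts on GRCm38 and ending at the APS unless it is called downstream. Capitals mark the polyadenylation signal AATAAA, a run of As, or, in the calmodulin copies, the longest run that both hold. Rpl9-ps6 and its parent Rpl9 are shown because their upstream bases are the same, Rpl11 because it is set beside its copies in AMPKα2, the calmodulin copies because the effect of KO at both differed between the models, and the last ones because they had almost no read in AMPKα1 libraries.
Rpl9-ps6, chr19:32465884-32465913, minus strand: ttttgggagAATAAAagacttatatattga
Rpl9, chr5:65388364-65388393, minus strand: ttttgggagAATAAAagacttatatattga
Rpl9-ps6 downstream, chr19:32465865-32465883, minus strand: AAAAAAAAAAAAAAAAAAA
Rpl11, chr4:136049947-136049976, minus strand: aaaagctAATAAAattttctcagaaatgca
Gm7308, chr6:127282288-127282317, minus strand: gatttccctgaatttctgacaATGATGGCa
Gm5881, chr6:96033226-96033255, minus strand: acttcccagagttcttgaccATGATGGCca
Gm6092, chrX:95211712-95211741, minus strand: gtggtgagccaggtctggctcaggaaaggg
Mylf-ps, chr12:101222177-101222206, minus strand: ggaccagggaggttatgaagatttcgttga

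Rpl9-ps6 thus repeated the end of Rpl9 base for base, and 19 As followed it in the genome. Over 60 bases around the sites of Gm7308 and Gm5881, 45 of 59 bases were the same once the windows were shifted by 1 base. Signals were rare at the pseudogene sites that lay inside annotated exons. Of the 431 pseudogene APSs whose 30 upstream bases lay in 1 annotated exon, 35 (8.12%) held AATAAA or ATTAAA on the strand of the APS, against 388 of 938 APSs (41.4%) of the parent genes. A stretch rich in As, with 7 consecutive As or 8 As in 10 bases, followed 84 of 406 pseudogene APSs (20.7%) and 123 of 681 parent APSs (18.1%). These windows leave out APSs beyond the annotated end, where a copied signal would lie close by, so the shares describe sites inside annotated exons only. APSs on chromosome 18 and on the strand opposite to their gene were also left out.

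Most members were copies of protein coding genes. Of the 911 pseudogenes, 739 were found in GENCODE, where 687 had a processed and 24 an unprocessed type and 23 were listed as protein coding. A closest protein coding transcript was found for 731, with a median identity of 96.7% (quartiles 92.2% and 98.9%), and 464 were at least 95% identical to it. Where the symbol names a parent and a closest transcript was found, both were the same gene in 99 of 99 cases. By this match, 173 pseudogenes with 200 APSs were copies of cytosolic ribosomal protein genes, which build the ribosome, 107 were copies of glycolysis genes, of which 89 were copies of Gapdh, and 34 were copies of oxidative phosphorylation genes. For 677 processed pseudogenes with an APS on their own strand, the most read APS lay a median of 50 bases beyond the annotated end, with quartiles of -203 and 188. It lay before the end in 230 (34.0%), up to 100 bases beyond it in 183 (27.0%) and further beyond in 264.

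Pseudogenes used few sites. In 733 of 911 (80.5%) a single APS was counted, against 34.0% of protein coding genes, and 95.9% of pseudogene APSs were on the strand of their gene. The median pseudogene APS held 54 reads over the 8 libraries (quartiles 29 and 154), close to the 51 reads of protein coding APSs. The pseudogenes with the most APSs were Gm12183 with 8, Vcp-rs with 7, and Gm5421, Gm5835, Gm4834 and LOC108167553 with 6 each. Gm12183 is a copy of Ddx5, an RNA helicase, Vcp-rs of Vcp, an ATPase that unfolds proteins, and Gm5835 of Rpl4, a protein of the large ribosomal subunit.

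A single pseudogene, Rn18s-rs5 on chromosome 17, named as a sequence related to 18S ribosomal RNA, held 1592063 of the 1999579 pseudogene reads (79.6%). Nearly all of them came from 1 APS, chr17:39846800. There AMPKα1 KO had 633 and 1632 reads, AMPKα1 WT 2990 and 2438, AMPKα2 KO 433927 and 299399, and AMPKα2 WT 476563 and 374399. Every AMPKα2 library was thus far above every AMPKα1 library. The sites of Rn18s-rs5 took 0.0671% of all reads on average in the 4 AMPKα1 libraries and 14.1% in the 4 AMPKα2 libraries (two-sided exact permutation test, p = 0.0286, the smallest that 4 against 4 libraries allow). Rn18s-rs5 was singled out by its reads in these same libraries, nearly all in AMPKα2, so this p gives no independent support. KO and WT overlapped in AMPKα2, at 14.3% ± 3.85 and 14.0% ± 0.817 (SD, n = 2 each). Ribosomal RNA is normally not polyadenylated, and why it was counted was not tested.

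Outside Rn18s-rs5 the order of the models turned. The other pseudogene APSs took 2.14% and 2.06% of the remaining reads in AMPKα1 KO and 4.65% and 1.66% in AMPKα1 WT. They took 0.800% and 1.17% in AMPKα2 KO and 1.16% and 1.05% in AMPKα2 WT. All AMPKα1 libraries lay above all AMPKα2 libraries, with means of 2.63% and 1.04% (two-sided exact permutation test, p = 0.0286). KO and WT overlapped in both models, and 2 against 2 libraries cannot give a p below 0.333. In bulk muscle, fewer cells of a type and less RNA per cell cannot be told apart.

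**Figure D1:**
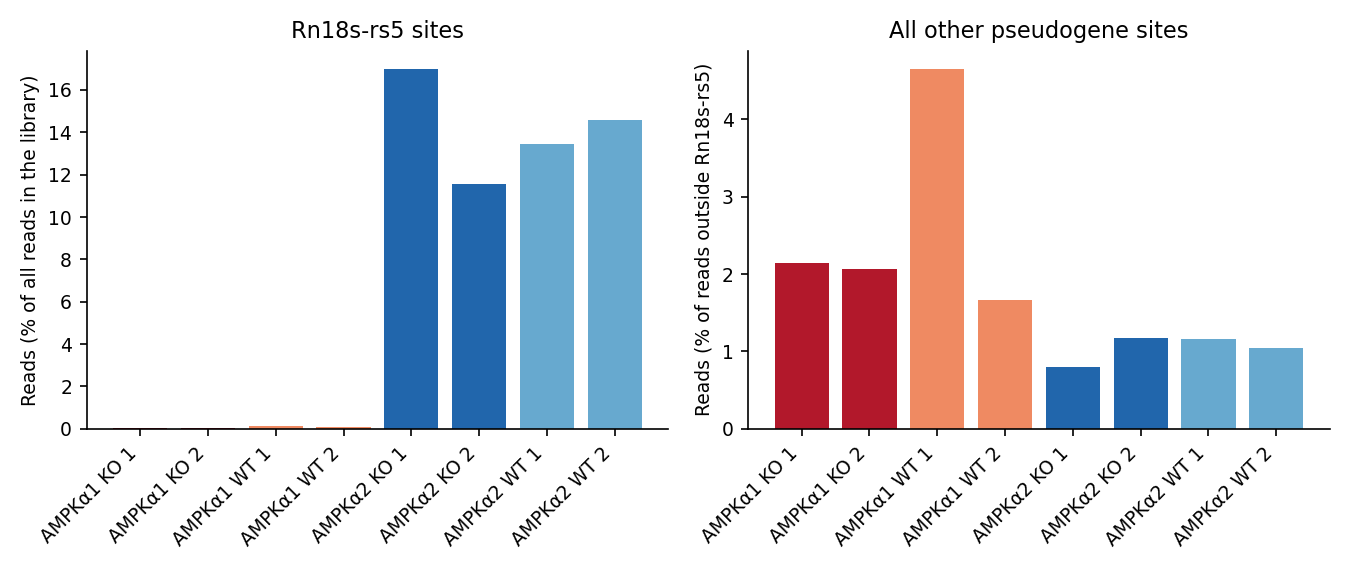
Bars give the percent of reads on Rn18s-rs5 in each library (left, of all reads) and on all other pseudogene APSs (right, of the reads outside Rn18s-rs5), for 2 KO and 2 WT libraries of each model. Rn18s-rs5 took 11.6% to 17.0% of reads in AMPKα2 libraries and at most 0.129% in AMPKα1 libraries, and AMPKα1 WT 1 had the highest share of other pseudogenes, 4.65%.

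AMPKα1 WT 1 stood apart. Copies of ribosomal protein genes took 2.02% of its reads outside Rn18s-rs5, against 0.718% to 0.929% in the other AMPKα1 libraries. Their parent genes took 1.19% of its reads, against 1.45% to 1.66% in those libraries. The copies therefore held 62.9% of the reads on copies and parents together in AMPKα1 WT 1, and between 33.1% and 41.3% in the other 7 libraries. It was also the library with the fewest reads.

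After Rn18s-rs5, the most read pseudogenes were copies of genes for the mitochondrial ATP synthase, the respiratory chain and the ribosome. Atp5k-ps1, named for a small subunit of the ATP synthase, held 21544 reads, with 2290 and 4393 in AMPKα1 KO, 9185 and 3714 in AMPKα1 WT, 182 and 517 in AMPKα2 KO, and 708 and 555 in AMPKα2 WT. Gm10288, a copy of Rpl11, followed with 15517 reads, and Gm14539, identical to a transcript of the ATP synthase gene Usmg5, with 12918. The others among the first 10 were Rpl9-ps6 (12053 reads), Rps13-ps2 (10443), Rps15-ps2 (8908), Gm11361 (8463, closest to Rps18), Gm2830 (8071, closest to Rps24) and Gm16418 (7820, closest to Uqcr11 of respiratory complex III). Thus 6 of these 9 after Rn18s-rs5 were copies of ribosomal protein genes, and each of the 9 had more reads in AMPKα1 than in AMPKα2 libraries. GENCODE lists Rpl9-ps6 and Gm11361 as protein coding.

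For 107 pseudogenes the symbol names a parent gene that also had APSs. The median pseudogene held 0.136 times the reads of its parent (quartiles 0.0353 and 0.766), but 25 held more reads than the parent and 8 at least 10 times as many. Of these 25, 17 were copies of cytosolic ribosomal protein genes, as were 55 of the 107. Rpl9-ps6 had 2475 and 2757 reads in AMPKα1 KO, 2730 and 2392 in AMPKα1 WT, 193 and 355 in AMPKα2 KO, and 769 and 382 in AMPKα2 WT. Rpl9 itself had 0 and 12, 7 and 112, 1 and 2, and 9 and 4 reads in the same order. The copy exceeded the parent in all 8 libraries, by 82.0 times over all of them.

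Rps13-ps2, whose transcript is 100% identical to one of Rps13, held 27.8 times the parent's 376 reads. Rps23-ps1 held 54.6 times, Rps25-ps1 25.1 times, Rpl35a-ps2 18.9 times and Rpl31-ps8 12.5 times the reads of the parent. Atp5k-ps1 held 1.87 times the 11538 reads of Atp5k, and Rps15-ps2 1.18 times the 7543 of Rps15. Rpsa-ps10, Rps24-ps3 and Rpl39-ps, also among the most read, held 0.406, 0.385 and 0.125 times the reads of their parents. The order could differ by model, since Tpt1-ps3, a copy of the gene for translationally controlled tumour protein, held 0.377 times the reads of Tpt1 in AMPKα1 and 4.19 times in AMPKα2 libraries. How reads that map equally well to a copy and its parent were placed is not given in the sources used here, so these are counts as assigned.

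**Figure D2:**
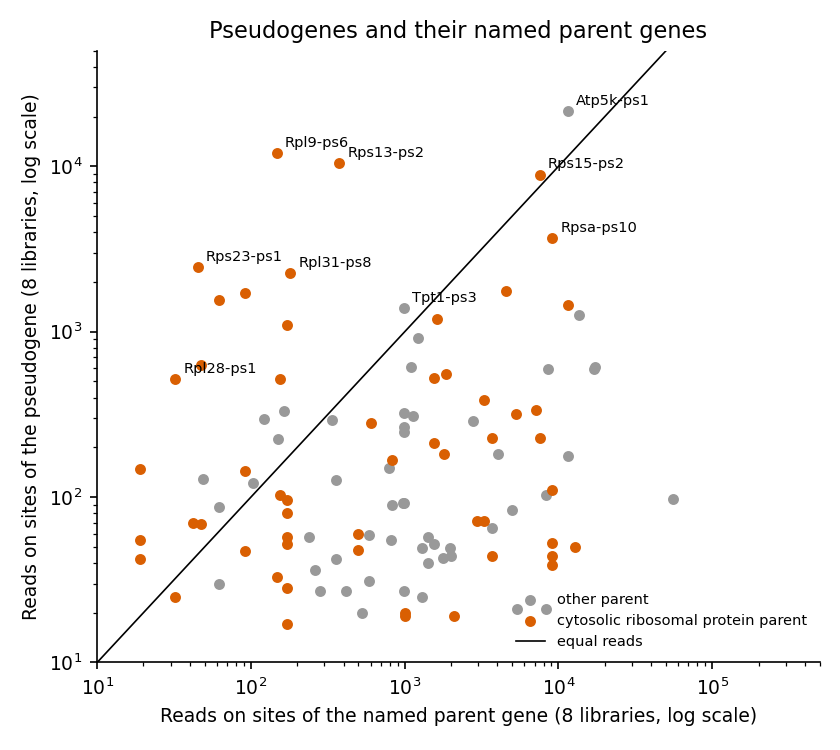
Each point is 1 of 107 pseudogenes whose symbol names a parent gene, with the parent's reads on the x axis and the pseudogene's reads on the y axis, summed over 8 libraries on log scales, and the line marks equal reads. The 25 points above the line include Rpl9-ps6 with 12053 reads against 147 of Rpl9.

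By families of closest genes, the copies of ribosomal protein genes held 169827 reads and their 69 parents 239313, so that 41.5% of the reads of both were on copies. In 38 of these 69 parents the copies held more reads than the parent, and for 14 no protein coding APS was counted. Copies held 8.70% of the reads of copies and parents together for glycolysis, 17.3% for oxidative phosphorylation, 18.9% for translation factors, 12.2% for chaperones and 2.54% for the cytoskeleton. The oxidative phosphorylation family leaves out 2 much read copies of ATP synthase genes, so its share is too low. Atp5k-ps1 (21544 reads) had no closest transcript, and Usmg5, the closest gene of Gm14539 (12918 reads), was not listed in a family. Copies of Gapdh, the glycolytic dehydrogenase, held 18354 reads against 42110 of Gapdh.

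KO and WT of the AMPKα1 model were compared by edgeR's quasi-likelihood test over the 44024 APSs that reached 16 reads in these libraries, with Benjamini-Hochberg adjustment and a threshold of 0.1. Of 815 pseudogene APSs that passed this filter, 0 were called and 55 (6.75%) had an unadjusted p under 0.05. Over all APSs 2 (0.00454%) were called, and 1353 (3.07%) had an unadjusted p under 0.05. DESeq2, the tool of the study's methods, called 13 of the 364 pseudogene APSs with an adjusted p (3.57%), 3 higher and 10 lower in KO, where it called 1.37% of all APSs with an adjusted p. The spread between AMPKα1 replicates was wide, with a common biological coefficient of variation of 156%, against 38.8% in AMPKα2.

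The site higher in AMPKα1 KO with the lowest p was in Gm6123, a copy of Pdhb, which encodes a subunit of pyruvate dehydrogenase. At chr1:4772544, the KO libraries held 393 and 317 reads and the WT libraries 2 and 0. Both KO libraries lay far above both WT libraries (log2 fold change 7.52 ± 1.24 SE, edgeR's Benjamini-Hochberg adjusted p = 0.175, DESeq2 adjusted p = 6.86e-05). By group means, as for all such bounds here, KO was at least 71.7-fold above the floor of 3 reads per library. AMPKα2 libraries held at most 1 read there. The other APS of Gm6123, at chr1:4771284, had 43 and 0 reads in KO against 3 and 0 in WT, so its groups overlapped.

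LOC108169004, at chr4:105580186, had 78 and 90 reads in KO against 0 in both WT libraries, at least 17.0-fold higher (edgeR's adjusted p = 0.543). Gm6197, a copy of the phosphatase gene Acp1, had 50 and 93 reads in KO at chr3:25732608 against 0 in both WT libraries, at least 14.5-fold higher (edgeR's adjusted p = 0.543). These 2 (0.168%) were the only pseudogene APSs of either model with at least 50 reads in each library of one genotype and none in the other. For AMPKα1 KO this pattern was found at 26 of all APSs (0.0460%). The reverse, with reads in AMPKα1 WT alone, was found at 22 of all APSs (0.0389%) and 0 pseudogene APSs. LOC108168780 had 123 and 131 reads in KO against 7 and 0, and Gm6142, a copy of the tubulin cofactor gene Tbca, 638 and 402 against 94 and 122. KO and WT libraries did not overlap at any of these 5 sites, and none passed edgeR's test.

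Lower in AMPKα1 KO, the 5 sites with the lowest p were in Rps15a-ps7, Rpl7a-ps5, Rn18s-rs5, Gm8730 and Gm10784. Rps15a-ps7 had 3 and 1 reads in KO against 238 and 40, at least 95.3-fold lower (edgeR's adjusted p = 0.214), and at least 14.4-fold lower without WT 1 (edgeR's adjusted p = 0.791). Rpl7a-ps5 had 3 and 1 in KO against 151 and 23, and Gm8730, a copy of the ribosomal stalk gene Rplp0, 6 and 4 against 169 and 17. In each of these 3 the WT 1 library was the highest, by several times over WT 2, and without it the log2 fold changes of Rps15a-ps7, Rpl7a-ps5 and Gm8730 went from -7.05, -6.39 and -5.25 to -4.36, -3.56 and -1.86. Gm10784, a copy of Ier3ip1, had 18 and 16 reads in KO against 177 and 79, with log2 fold changes of -3.80 and, without WT 1, -2.33.

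Counts were also summed over each parent and its copies. Rps15a and its copy together held 1010 and 1687 reads in AMPKα1 KO and 727 and 1363 in WT (log2 fold change -0.08 ± 0.41 SE, edgeR's Benjamini-Hochberg adjusted p = 0.999). Rpl7a with its copies held 204 and 48 against 330 and 222 (log2 fold change -1.78 ± 0.85 SE, edgeR's Benjamini-Hochberg adjusted p = 0.776). Besides Gm6123, LOC108169004 and Gm6197, the DESeq2 calls were lower in KO in 10 sites, with LOC102633230 (128 and 102 reads against 1049 and 210), Gm13436 (145 and 75 against 1209 and 123) and Gm6394 (26 and 2 against 310 and 49) among the most read. AMPKα1 WT 1 held the highest count in each of these 3 as well, and without it edgeR's log2 fold changes went from -3.47, -3.68 and -4.71 to -0.99, -0.28 and -1.92.

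The median log2 fold change of the 815 pseudogene APSs was -0.53, where that of all APSs was 0.02, and 531 of the 815 were lower in KO. Without AMPKα1 WT 1 the medians were 0.09 and 0.26. Both KO libraries lay below both WT libraries at 167 APSs (20.5%), where this held at 18.2% of all APSs, and above them at 65 (7.98%), where it held at 9.02%. Against WT 2 alone, a comparison added after seeing the data, both KO libraries lay below at 34.7% of these pseudogene APSs and 35.9% of all APSs, and above at 22.9% and 15.6%. By family, 25 of 28 sites of oxidative phosphorylation copies were lower, with a median of -1.55, and 111 of 161 sites of ribosomal protein copies, with a median of -0.74, and none was called. Without AMPKα1 WT 1 these were 10 of 23 with a median of 0.08 and 75 of 152 with a median of 0.02. Sites of chromatin and nucleolus copies kept their sign, with medians of 1.20 over 21 sites and 3.20 over 20 sites without that library. So did copies of RNA binding and splicing (0.157 and 0.725), glycolysis (-0.56 and -0.087), ubiquitin and proteasome (-0.604 and -0.259) and iron storage genes, the last with 1 site. The medians of the other families turned positive. With both WT libraries none of the sites of these families was called. Without AMPKα1 WT 2, edgeR called 45 of 688 pseudogene APSs (6.54%), 2 higher and 43 lower, where it called 0.488% of all APSs.

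In the AMPKα2 model 23218 APSs were tested, of which 13 (0.056%) were called. Of 721 pseudogene APSs tested, 1 was called, 45 (6.24%) had an unadjusted p under 0.05, where 7.60% of all APSs had, and the median log2 fold change was -0.09 against 0.01 over all. The called site was chr3:146838777 in Gm10288, a copy 99.8% identical to Rpl11, a protein of the large ribosomal subunit. It had 9 and 5 reads in KO against 953 and 505, so that both KO libraries were far below both WT libraries. In CPM it fell from 228 ± 25.7 in WT to 3.05 ± 2.0 in KO (SD, n = 2 each, log2 fold change -6.28 ± 0.53 SE, edgeR's Benjamini-Hochberg adjusted p = 0.0156). Without WT 2 the log2 fold change was -6.39 and edgeR's adjusted p = 0.265. In AMPKα1 the same site had 4492 and 4247 reads in KO against 2397 and 2909. DESeq2 called 2 of 153 pseudogene APSs in AMPKα2 (1.31%), where it called 2.16% of all APSs with an adjusted p.

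The site with the lowest p among those higher in AMPKα2 KO was in another copy of Rpl11. Gm10036, at chr18:15833373 and 99.3% identical to Rpl11, had 763 and 958 reads in KO against 363 and 239 (log2 fold change 1.84 ± 0.32 SE, edgeR's Benjamini-Hochberg adjusted p = 0.313, DESeq2 adjusted p = 0.00291). Both KO libraries were above both WT libraries. The APS of Rpl11 itself, at chr4:136049947, had 0 and 1 reads in KO against 134 and 75, and the third copy, Gm6905, at most 1 read. So the parent and Gm10288 were nearly without reads in AMPKα2 KO, where Gm10036 held 98.8% and 99.4% of the reads of the family, against 25% and 29.2% in WT.

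Summed over Rpl11 and its copies, KO and WT were close. The family held 772 and 964 reads in AMPKα2 KO and 1451 and 819 in WT, or 383 and 315 CPM against 375 and 341 CPM on the scale of the site test. The groups overlapped (log2 fold change 0.10 ± 0.25 SE, edgeR's Benjamini-Hochberg adjusted p = 0.949). Whether the copies differ in bases between the mice was not tested.

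**Figure D3:**
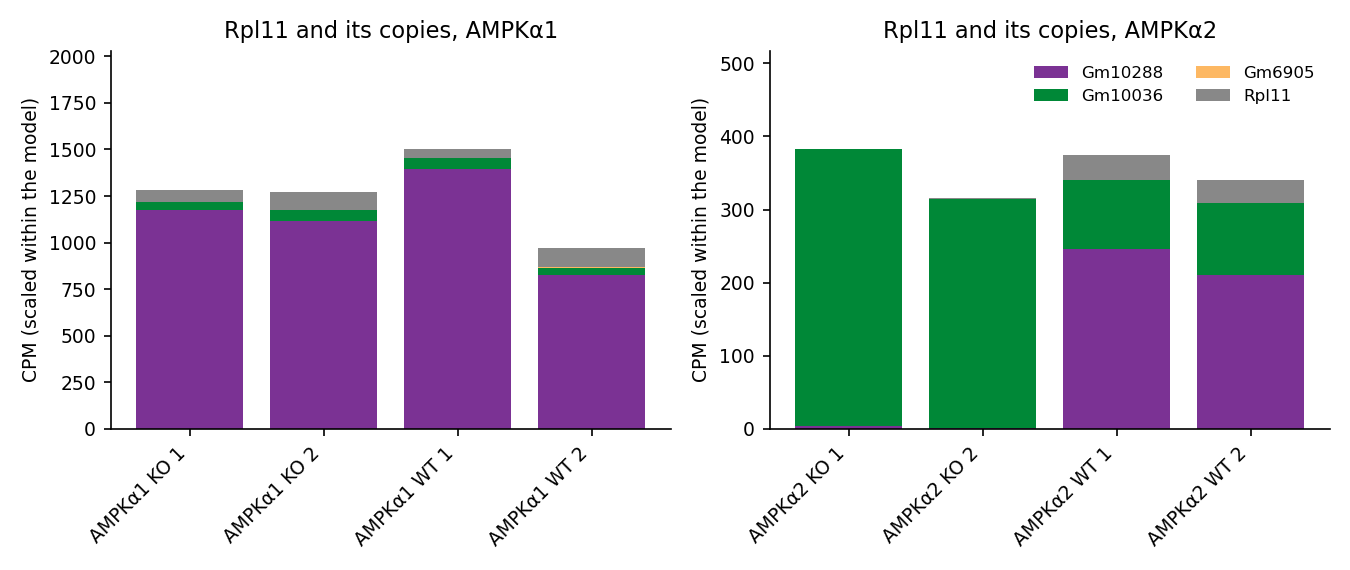
Stacked bars give the CPM of Rpl11 and its copies Gm10288, Gm10036 and Gm6905 in each library, scaled within each model (AMPKα1 left, AMPKα2 right, different y axes). In AMPKα2 KO libraries nearly the whole bar is Gm10036, while the height of the bars (383, 315, 375 and 341 CPM) overlaps between KO and WT.

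The other sites with the lowest p in AMPKα2 held between 20 and 398 reads in its 4 libraries. Higher in KO, Gm8518, a copy of Ccdc12, had 13 and 17 reads against 3 and 0, Nudc-ps1 4 and 18 against 1 and 0, Gm4896 163 and 118 against 74 and 43, and LOC100503946 60 and 90 against 29 and 30. Lower in KO, Gm2962, a copy of Uqcrb of respiratory complex III, had 5 and 10 reads against 35 and 23, Rps18-ps3 1 and 1 against 11 and 7, Rpl38-ps2 11 and 19 against 52 and 35, and Gm5676, a copy of the splicing factor gene Cdc5l, 1 and 2 against 14 and 6. KO and WT did not overlap at any of the 8, and edgeR's adjusted p ranged from 0.498 to 0.626. Both KO libraries lay below both WT libraries at 25.7% of pseudogene APSs tested, where this held at 20.9% of all APSs, and above at 15.8%, where it held at 18.8%. Of 123 tested sites of ribosomal protein copies 80 were lower in KO, with a median log2 fold change of -0.26, and 1, that of Gm10288, was called.

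**Figure D4:**
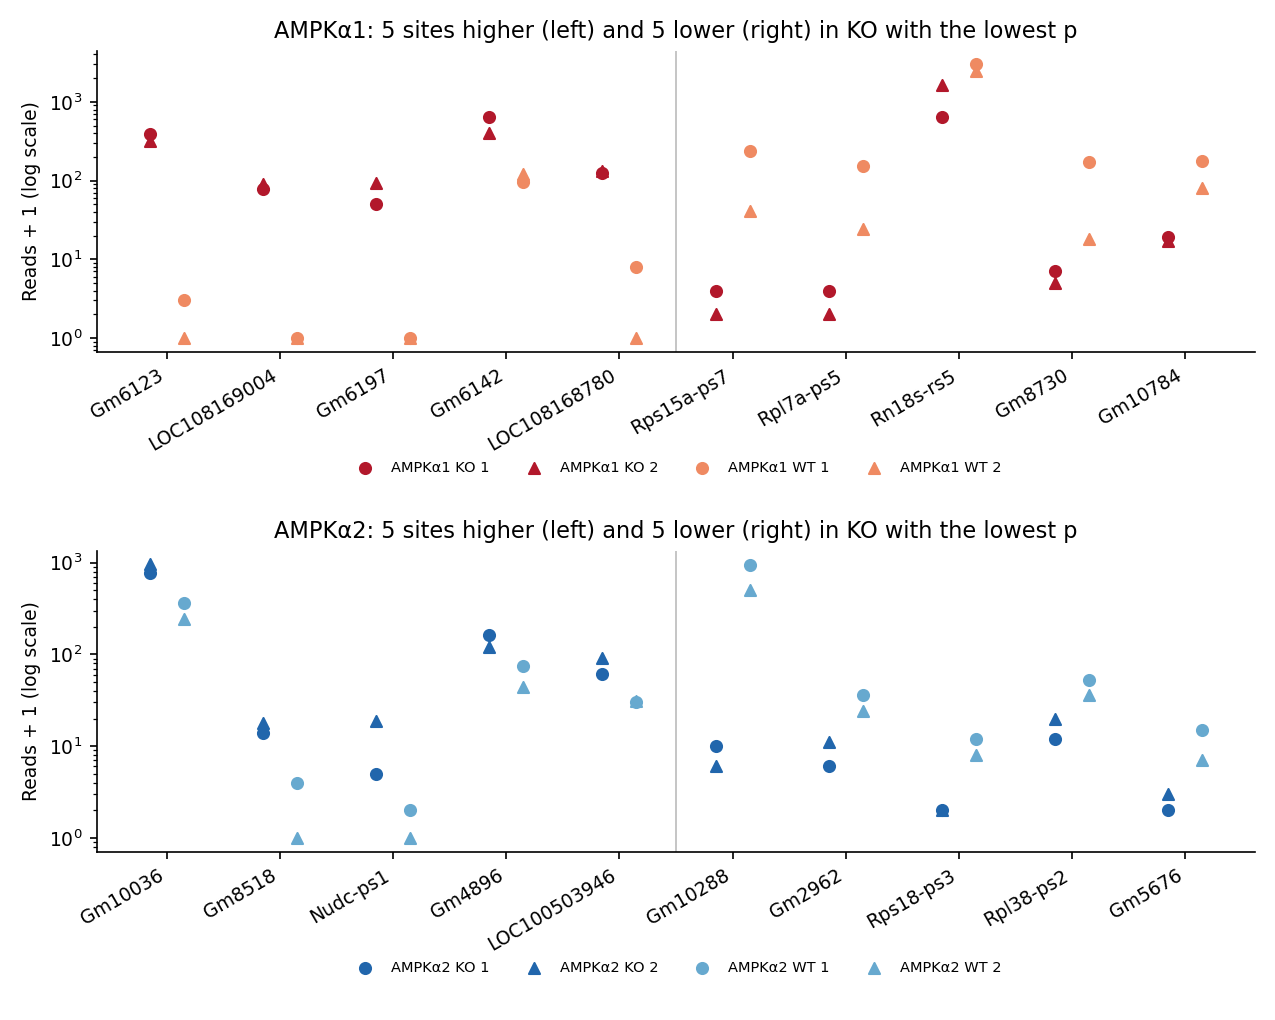
Points give reads plus 1 on a log scale for the pseudogene APSs with the lowest p in edgeR's test of KO against WT, 5 higher and 5 lower in KO, in AMPKα1 (top) and AMPKα2 (bottom), with circles for replicate 1 and triangles for replicate 2. Only Gm10288 in AMPKα2, with 9 and 5 reads in KO against 953 and 505 in WT, passed the test.

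With reads summed per pseudogene, 0 of 725 pseudogenes were called by edgeR in AMPKα1, where 0.0% of 13941 genes were, and 33 (4.55%) had an unadjusted p under 0.05, where 4.21% of all genes had. DESeq2 called 17 of 358 pseudogenes with an adjusted p (4.75%), where it called 1.23% of all genes. In AMPKα2, 2 of 550 pseudogenes were called, where 0.682% of all 10552 genes were. They were Gm10288, lower in KO (log2 fold change -6.18 ± 0.41 SE, edgeR's Benjamini-Hochberg adjusted p = 5.85e-05), and Gm10036, higher in KO (1.98 ± 0.26 SE, adjusted p = 0.00653 by the same test, and 0.21 without AMPKα2 WT 1). With copies and parents summed, 2 of 416 families (0.481%) were called in AMPKα2, a share close to the 0.465% of all genes in that fit. They were Ubb and Rpl3, both lower in KO. Ubb, a ubiquitin gene, and its copy Gm8797 held 59 and 72 reads against 703 and 570 (edgeR's Benjamini-Hochberg adjusted p = 0.00382), of which Gm8797 held at most 3. Rpl3 held 1 and 0 reads against 202 and 86, while Rpl3-ps1 and Rpl3-ps2 together held 12 and 30 against 37 and 13.

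Whether KO acted unequally in the models was asked with an interaction term fitted to all 8 libraries. This fit, also used between the models below, takes the same spread for both models, with a common biological coefficient of variation of 110%. Fitted alone, AMPKα1 had 156% and AMPKα2 38.8%, so its p-values rest on an equal spread that the models did not show. Of 1188 pseudogene APSs 3 were called, where 0.143% of all APSs were, and 98 (8.25%) had an unadjusted p under 0.05, where 6.96% of all APSs had. Gm10288 was one (log2 difference of the effects -6.29 ± 0.72 SE, edgeR's Benjamini-Hochberg adjusted p = 0.00206). The other two were the calmodulin copies shown above, and calmodulin is the main calcium sensor protein of the cell. Gm7308, a copy of Calm2, had 0 and 0 reads in AMPKα1 KO, 13 and 26 in AMPKα1 WT, 40 and 137 in AMPKα2 KO, and 67 and 61 in AMPKα2 WT (edgeR's Benjamini-Hochberg adjusted p = 0.0282).

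Gm5881, a copy of Calm3, had 0 and 0, 11 and 22, 29 and 86, and 76 and 82 reads in the same order (edgeR's Benjamini-Hochberg adjusted p = 0.0731). Both sites were without reads in AMPKα1 KO, and KO and WT overlapped in AMPKα2. Without AMPKα2 KO 1 or KO 2, none of the 3 passed (edgeR's adjusted p = 0.178 and 0.198 for Gm10288, 0.451 and 0.495 for Gm7308, 0.590 and 0.812 for Gm5881). Without either AMPKα2 WT library the calmodulin copies did not pass, and without either AMPKα1 WT library Gm5881 did not. Summed with the copies, Calm2 held 137 and 64 reads against 46 and 195 in AMPKα1, and Calm3 71 and 107 against 53 and 84, which overlapped.

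Between the models, edgeR called 469 of 1188 pseudogene APSs. Of them 430 (36.2%) were higher in AMPKα2, where 22.5% of all APSs were, and 39 (3.28%) lower, where 2.96% of all APSs were. The median log2 difference was 1.34 over pseudogene APSs and 0.12 over all APSs. This direction depends on the scaling, and the fibroblast, endothelium and Schwann cell markers also separated the models. With library totals alone, 247 were higher (20.8%, where 14.8% of all APSs were) and 198 lower (16.7%, where 16.0% were), and the medians were -0.63 and -1.77, so pseudogene APSs lay above the median of all APSs under both.

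**Figure D5:**
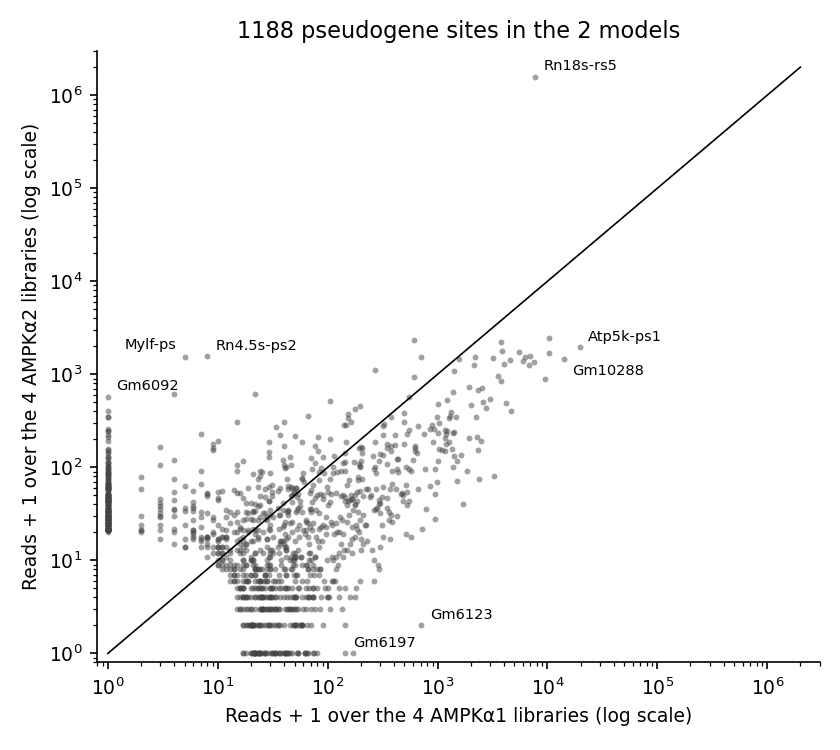
Each point is 1 of 1188 pseudogene APSs, with reads plus 1 summed over the 4 AMPKα1 libraries on the x axis and over the 4 AMPKα2 libraries on the y axis, on log scales, and the line marks equal reads. Points on the left edge are the 206 APSs with no AMPKα1 read, and points on the lower edge the 60 APSs with no AMPKα2 read.

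No AMPKα1 read was counted at 206 pseudogene APSs (17.3%), where this held at 12.6% of all APSs, and no AMPKα2 read at 60 (5.05%), where it held at 11.4%. The most read of the former were in Gm6092, Gm4896, Gm5421, Gm6560 and Tpi-rs10. Gm6092, whose closest gene is the adenylate kinase gene Ak1, had 132 and 144 reads in AMPKα2 KO and 170 and 130 in AMPKα2 WT at chrX:95211712. Tpi-rs10, named for triosephosphate isomerase, had 85 and 81 against 55 and 39. All 5 sites were read in all 4 AMPKα2 libraries, with between 39 and 170 reads in each.

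The most read sites without an AMPKα2 read were in LOC108169004, Gm6197, Gm6704, Gm4617 and Gm30502, with 73 to 168 reads. Gm6704, a copy of the spliceosome gene Snrpg, had 78 reads in AMPKα1 KO 1 and at most 1 in each other library, so nearly all of its reads came from 1 mouse. Within a group, AMPKα1 KO held 33 of 244 pseudogene APSs (13.5%) with at least 50 reads in 1 library and 0 in the other, against 30.4% of all APSs, and AMPKα1 WT 13 of 240 (5.42%) against 5.09%. In AMPKα2 KO and WT this was 0 of 112 and 0 of 137, where the shares of all APSs were 0.293% and 0.318%.

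Sites of 1 pseudogene could differ between the models in opposite ways. Gm6560 is a copy of Pkm, the gene of the muscle pyruvate kinase, on the minus strand of chromosome 5. Its APS at chr5:22724032 had 1010 and 1370 reads in AMPKα1 KO and 91 and 790 in AMPKα1 WT, but 25 and 19 in AMPKα2 KO and 25 and 11 in AMPKα2 WT. Its APS at chr5:22725503 had 0 and 0, and 3 and 0, in AMPKα1 but 153 and 162, and 139 and 157, in AMPKα2. The site farther along the transcript was thus the higher one in AMPKα1 and the lower one in AMPKα2.

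In Mylf-ps, a copy 99.3% identical to the fast muscle myosin light chain gene Myl1, the APS at chr12:101222177 had 0 and 2, and 2 and 0, reads in AMPKα1 against 431 and 312, and 481 and 292, in AMPKα2. Its APS at chr12:101221726 was read in all 8 libraries, with 145 to 3069 reads in AMPKα1 and 385 to 769 in AMPKα2. Rn4.5s-ps2, named for the small 4.5S RNA, had 2 and 1, and 2 and 2, reads in AMPKα1 and 263 and 364, and 628 and 321, in AMPKα2 (log2 difference 9.88 ± 0.49 SE, edgeR's Benjamini-Hochberg adjusted p = 2.59e-10). With Rn18s-rs5 (log2 difference 10.08 ± 0.51 SE, adjusted p = 3.49e-09 by the same test), the sites with the lowest p between the models thus included a pair named for RNAs that are not mRNAs.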

How the data were processed

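WTTS-seq libraries of gastrocnemius muscle from 8 mice were used. According to the study's methods and the labels, the authors sequenced on an Ion PGM instrument, used the FASTX Toolkit for quality filtering, removed Ts at the start of reads, aligned to GRCm38.p5 with TMAP, grouped nearby read ends into clusters and annotated these by Cuffcompare. The table the authors deposited holds raw read counts per APS and library, for APSs with at least 16 reads, and every column of counts was mapped to a sample. How the authors treated reads that map to several places is not given in the sources used here.

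Members are all rows with the biotype pseudogene. The members, families and lists were chosen with earlier results of these data known. Pisd-ps genes, which a rule also named, carry another biotype and are not members. Named sites follow rules on reads, on p, on reads above the parent's, on absence in 1 model or genotype and on the number of APSs. Families called with copies and parents summed, sites named between the models and the second sites of Gm6560 and Mylf-ps were chosen after their values were seen.

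KO and WT were compared with edgeR 4.0.16 in R 4.3.3 (TMM factors, robust quasi-likelihood fit, at least 16 reads over the compared libraries, Benjamini-Hochberg adjusted p under 0.1), with DESeq2 1.42.0 as an alternative. SEs of log2 fold changes were derived from F statistics, which makes them approximate. A floor of 3 reads per library was used for lower bounds, which set the mean CPM of 1 group over the mean floor of the other. They need not hold for each single library. They cover counting error only, since reads were amplified and carry no molecular identifiers. Each mouse is 1 library, and 2 libraries make a group, so p-values rest on 2 mice per group. Annotation is GENCODE release M21 on GRCm38, matched by symbol, chromosome, strand and place, and closest transcripts were found with blastn 2.17.0 over at least 50% of the annotated transcript. Scripts were tested on simulated data. Of 200 APSs changed by 4-fold in the AMPKα1 test 4 were recovered, and 66 at 16-fold. In the AMPKα2 test 92 and 200 were recovered. False calls numbered 0 and 2 in the AMPKα1 test and 11 and 11 in the AMPKα2 test. The changed APSs were drawn only from APSs with more reads than the median pseudogene APS, which held 54 over the 8 libraries. Recovery at pseudogene APSs with fewer reads was therefore not tested. Depth ran from 2311242 to 3549156 reads, and 3 reads equal 0.776 to 1.75 CPM. Alternatives changed the tool, scaling, filter, threshold, APSs and libraries.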

Additional observations from a re-analysis of the deposited data

Results flagged for a closer look

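At 3 pseudogene APSs the effect of KO differed between the models by the interaction test of edgeR with Benjamini-Hochberg adjustment, which takes the same spread for both models. The log2 of the AMPKα2 effect over the AMPKα1 effect was -6.29 in Gm10288, where AMPKα2 KO had 9 and 5 reads against 953 and 505 in WT and AMPKα1 KO 4492 and 4247 against 2397 and 2909. It was 7.55 in Gm7308 and 6.38 in Gm5881, both without a read in AMPKα1 KO, so that these are fitted values and not bounds. Gm10288 passed under 14 of 16 alternatives, Gm7308 under 10 and Gm5881 under 7. Of these alternatives, that without a filter on low counts repeats the main fit, so its pass was fixed in advance. Every deposited APS already had at least 16 reads. By the study's methods strain and age go with the model, and cannot be told apart from it. Groups of 2 libraries are too small to test a single library against the rest of its group.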

How the results depend on the processing

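For the pseudogene APSs called in AMPKα1 (0), DESeq2, all 8 libraries in 1 fit and only APSs on the strand of their gene each gave 13 (3.57%, 1.09% and 1.67% of pseudogene APSs tested, 1.37%, 0.765% and 0.250% of all). No filter on low counts gave 1 (0.102%, of all APSs 0.0081%) and library totals alone 5 (0.613%, of all APSs 0.111%). For AMPKα2 (1), no filter gave 10 (0.887%, of all APSs 1.11%) and DESeq2 2 (1.31%, of all APSs 2.16%). For the effect differing between models (3), library totals alone gave 1 (0.0842%, of all APSs 0.00177%) and at least 50 reads 1 (0.157%, of all APSs 0.0218%). Sense APSs gave 6 (0.527%, of all APSs 0.229%) and DESeq2 11 (1.98%, of all APSs 1.10%). Between the models (469 of 1188, 39.5%, of all APSs 25.5%), at least 50 reads gave 255 of 637 (40.0%, of all APSs 28.1%), a similar share. For summed counts in AMPKα1 (0), all 8 libraries gave 7 (0.768%, of all genes 0.54%) and DESeq2 17 (4.75%, of all genes 1.23%). In AMPKα2 (2), library totals alone gave 5 (0.909%, of all genes 1.75%) and no filter 18 (2.08%, of all genes 2.72%). Sense APSs gave 4 (0.746%, of all genes 0.699%), DESeq2 4 (1.23%, of all genes 1.18%) and all 8 libraries 1 (0.11%, of all genes 0.039%). Leaving out each library gave 0 to 45 in AMPKα1, where 45 was without WT 2, 0 to 1 in AMPKα2, where 0 was without WT 2, 0 to 22 for the differing effect, 323 to 524 between the models, 0 to 0 and 1 to 8 for summed counts, and -2.64 to 0.40 and -2.37 to 2.71 percentage points for the KO minus WT share of pseudogene reads. At 22, without AMPKα1 KO 1, a smaller share of pseudogene APSs than of all APSs was called for the differing effect. At 524, also without AMPKα1 KO 1, the share of pseudogene APSs was the larger one. So was that of pseudogenes on summed counts at 8, without AMPKα2 KO 2. Leaving out a library leaves 1 in its group, so these ranges show only how far the counts move. Of the named sites and genes, 707 of their alternative values kept direction and side of the threshold, 76 passed it anew and 20 no longer passed, and 0 changed direction. These sites and genes were chosen for a low p in the same counts, so a kept direction was close to fixed in advance. Most had not passed, so a kept side mostly means that they stayed uncalled. An uncalled site without an adjusted p was counted as kept. Of the alternative values of the main counts and shares, 73 stayed close to the main value and 33 moved. The settings with library totals alone, without Rn18s-rs5 and with copies and parents summed were chosen after seeing the data.

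KO and WT libraries share replicate numbers but come from different mice. The correlation of the deviations of same-numbered libraries from their group means was 0.00904 in AMPKα1 and 0.0275 in AMPKα2. It was taken over all APSs tested, many with few reads, so it cannot exclude an effect shared by same-numbered libraries. A fit with the number as a block called 520 of all APSs in AMPKα2, where the main fit called 13. As the mice differ, the numbers are taken as names only. With the replicate number as a block, 0 pseudogene APSs were called in AMPKα1 and 10 in AMPKα2 (1.39%, of all APSs 2.24%). For the differing effect 5 were called (0.421%, of all APSs 0.150%), and between the models 446 (37.5%, of all APSs 24.1%). On summed counts 0 pseudogenes were called in AMPKα1 and 5 in AMPKα2 (0.909%, of all genes 0.91%).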
